A study of Rattus norvegicus with 6 samples.

Results

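The complement genes named here were C1qa, C1qb, C1qc, C1r, C1s, C2, C3, Cd59 and Serping1, 9 genes of components and regulators of complement. They were read from every probe set of a newborn rat fat series whose array annotation gives exactly 1 gene symbol, that symbol being one of the 9. The rule found 7 of the 9 genes, each with 1 probe set, among 31042 probe sets that are not array controls. C2 was named only on 4 probe sets that also carry the symbol Cfb, its neighbour, so no level of C2 is given. No probe set carried the symbol Cd59 alone, and the gene Cd59b, for which the RefSeq gene table lists Cd59 as an older name, is described separately below.

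Total RNA came from the mesenterial adipose tissue, the fat of the gut's suspending folds, of newborn wildtype Sprague-Dawley rats. The dams of the adequate group had eaten a diet with 1000 IU of vitamin D per kg, and 3 arrays were made from their young. The dams of the deficient group had eaten a diet with 0 IU per kg, and 3 arrays were made likewise. The pups of both groups were of the same strain, age and genotype, and no label states that arrays of 1 group stem from separate animals or litters. The p-values then measure the spread between these arrays, which may be technical.

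Complement is a cascade of blood and tissue proteins that marks microbes, dying cells and debris. In its classical pathway C1q, a bundle of A, B and C chains, binds the target and switches on the proteases C1r and then C1s, which cut C4 and C2 to build an enzyme that cleaves C3. Serping1, the C1 inhibitor, removes active C1r and C1s, and CD59 blocks the last step, the membrane pore. Most plasma complement comes from the liver, whereas C1q is made mainly by macrophages and dendritic cells, and C1r, C1s and Serping1 are also made by fibroblasts and other stromal cells.

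A pair of arrays, deficient 1 and deficient 2, differed from the other 4 as a whole. On the first principal component, which held 49.5% of the variance, they scored 43.1 and 46.4, while the remaining arrays scored -26.2 to -18.5. The spiked-in bacterial control RNAs read 7.19 times the adequate geometric mean on deficient array 1 and 10.1 times on deficient array 2, and 0.960 times on deficient array 3. The 3' over 5' signal ratio of beta-actin, which rises as RNA or its labelling gets shorter, was 7.56 and 6.80 on the pair and between 2.35 and 4.81 elsewhere. In an exact two-sided permutation test of deficient against adequate arrays, p was 0.3 for the log2 controls and 0.4 for the log2 actin ratio. The smallest p that 3 against 3 arrays can give is 0.1. This test compares the diet groups, and does not compare the pair with the other 4 arrays. The complement genes are therefore given array by array. Of 10 adipocyte genes, Fabp4, Lpl, Cd36, Lipe and Pnpla2 were bright enough to test, while the defining adipocyte genes Adipoq, Plin1, Cidec, Lep and Pparg lay under the filter on dim probe sets.

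The question was whether vitamin D in the dams' feed bore on complement transcripts in the fat of their young. The C1q chains, Serping1, C3 and, by less, C1s had lower mean signals in the deficient group, at 0.593 to 0.853 of the adequate level, and C1r had 1.03 of it. All 7 probe sets were bright enough to pass the filter, and none of these differences passed the test. With limma and Benjamini-Hochberg adjustment over all 18625 tested probe sets, 0 of the 7 probe sets had an adjusted p under 0.05, as did 0% of all tested. At an unadjusted p under 0.05 the count was also 0 of 7, against 14.2% of all tested in either direction and 8.18% lower. A log2 change below 0 was seen for 6 of the 7, against 55.3% of all tested, and the median log2 change was -0.42, against -0.05 over all. The groups did not overlap for 1 of the 7, Serping1, which was lower, against 17.4% of all tested in either direction and 10.8% lower.

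**Figure D1:**
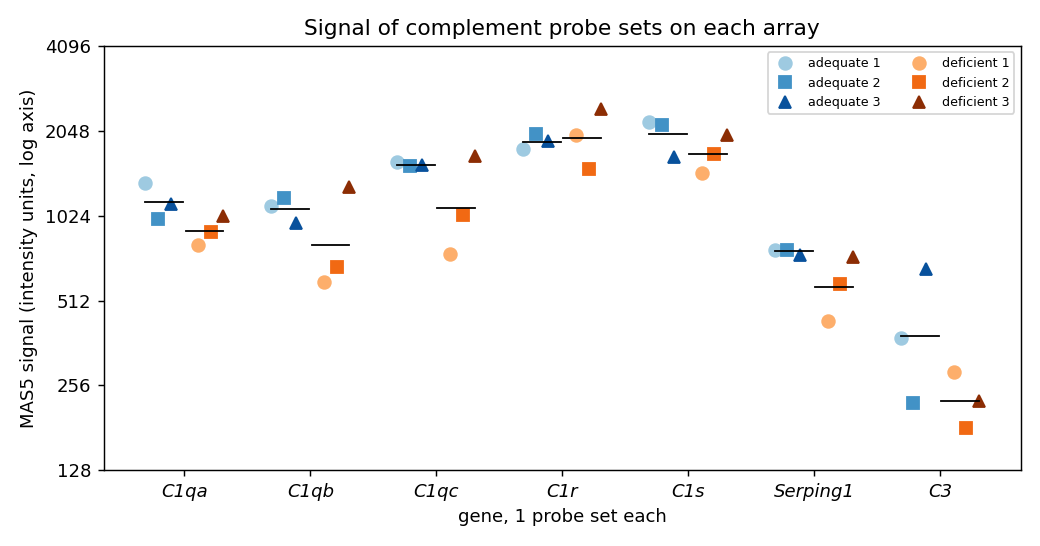
MAS5 signal in intensity units (log axis) of the 7 complement probe sets on each of the 6 arrays, with adequate arrays in blue, deficient arrays in orange and a line at each group's mean log2 signal. For C1qa, C1qb, C1qc and Serping1 deficient arrays 1 and 2 lie below all 3 adequate arrays. Deficient array 3 lies within the adequate range for C1qa, above it for C1qb and C1qc and just below it for Serping1. Probe sets cannot be compared with each other in level.

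C1qa, which encodes the A chain, had signals of 1333, 996 and 1122 in the adequate group, against 805, 896 and 1021 in the deficient one (probe set 1376652_at). The deficient arrays were the lower ones, but deficient array 3 lay above adequate array 2, so the groups overlapped. The mean log2 signal was 10.16 ± 0.21 with the adequate and 9.82 ± 0.17 with the deficient diet (SD, n = 3 each). The log2 change, deficient minus adequate, was -0.34 ± 0.17 (SE), a fold of 0.790, with a 95% interval from -0.72 to 0.04 and an adjusted p of 0.373.

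C1qb, the B chain, had signals of 1106, 1186 and 966 in the adequate group, against 596, 672 and 1294 in the deficient one (probe set 1370215_at). Deficient arrays 1 and 2 were the lowest of the 6 and deficient array 3 was the highest. The log2 means were 10.08 ± 0.15 and 9.65 ± 0.60 (SD, n = 3 each), and the log2 change was -0.43 ± 0.26 (SE), with a 95% interval from -1.02 to 0.16 and an adjusted p of 0.436.

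C1qc, the C chain, had signals of 1585, 1533 and 1546 in the adequate group, against 751, 1030 and 1662 in the deficient one (probe set 1373025_at). The adequate arrays were nearly equal, with an SD of 0.03 in log2 signal, and the order of the deficient arrays was that of C1qb. The log2 means were 10.60 ± 0.03 and 10.09 ± 0.58 (SD, n = 3 each). The log2 change was -0.52 ± 0.25 (SE), a fold of 0.699, with a 95% interval from -1.07 to 0.04 and an adjusted p of 0.363.

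The genes of the chains lie next to each other on chromosome 5 of the GRCr8 assembly, in the order C1qb, C1qc, C1qa. C1qb and C1qc kept the closest pace: their difference in log2 signal, set to a mean of 0 in the adequate arrays, stayed between -0.16 and 0.19 on all 6 arrays, a range of 0.34. The differences of C1qa from C1qb and from C1qc had ranges of 0.78 and 0.80. On deficient array 3 these differences were -0.42 and -0.26, and on deficient arrays 1 and 2 they lay between 0.24 and 0.54.

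On deficient arrays 1 and 2 all C1q chains were below the adequate mean, and C1r was at 0.07 and -0.33. C1s (-0.46, -0.23), Serping1 (-0.82, -0.38) and C3 (-0.42, -1.08) were below it there too. The 250 bases before the start sites of C1qa, C1qb and C1r are shown, and a link of their letters to these values was not tested. The RefSeq promoter table (GRCr8) held 4 of the 9 genes: C1qa, C1qb, C1r and C3. C1qa lies at chr5:154419934-154420183 on the minus strand, C1qb at chr5:154407828-154408077 on the minus strand and C1r at chr4:159098763-159099012 on the plus strand. The sequences run 5' to 3' along the gene. Capitals mark matches, on either strand, to GGAAGT (the core bound by ETS factors such as PU.1 of macrophages), to TTCNNNGAA (bound by STAT factors) and to TTGCNNAA (bound by C/EBP factors).
C1qa: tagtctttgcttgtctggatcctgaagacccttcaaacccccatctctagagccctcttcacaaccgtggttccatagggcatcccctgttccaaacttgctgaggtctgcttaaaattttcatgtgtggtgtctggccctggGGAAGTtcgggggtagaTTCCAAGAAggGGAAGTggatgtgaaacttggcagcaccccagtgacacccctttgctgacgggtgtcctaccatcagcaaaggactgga
C1qb: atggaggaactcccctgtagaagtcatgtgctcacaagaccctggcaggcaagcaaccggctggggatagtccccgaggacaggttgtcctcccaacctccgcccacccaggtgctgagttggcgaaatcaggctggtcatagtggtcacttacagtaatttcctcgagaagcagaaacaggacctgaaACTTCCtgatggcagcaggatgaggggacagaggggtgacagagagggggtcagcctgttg
C1r: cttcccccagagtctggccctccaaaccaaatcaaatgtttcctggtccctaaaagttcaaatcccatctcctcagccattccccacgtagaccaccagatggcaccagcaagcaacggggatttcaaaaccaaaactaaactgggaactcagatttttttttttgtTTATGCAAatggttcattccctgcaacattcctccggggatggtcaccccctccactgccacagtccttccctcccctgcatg
C1qa held GGAAGT at 107 to 102 and at 79 to 74 bases before the start, with a TTCNNNGAA match between them at 90 to 82. C1qb held GGAAGT, on the other strand, at 61 to 56 bases before the start. Neither C1r nor C3 held GGAAGT. C1r held a TTGCNNAA match on the other strand at 83 to 76, and C3 held TTGCGAAA at 104 to 97 on its own strand. TTCNNNGAA reads the same on both strands, and no match overlapped one of another motif. Of all 33469 promoters in the table, 19.2% hold GGAAGT in this window, 7.67% TTCNNNGAA and 9.22% TTGCNNAA. The vitamin D response element of the DR3 type, held by 0.0926% of promoters, and the interferon-stimulated response element, held by 3.41%, had no match in these 4 windows. A match describes letters only, and the motifs were chosen with the sequences in view.

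C1r and C1s, the proteases that C1q activates, are neighbours on chromosome 4 of GRCr8. C1r had signals of 1761, 1998 and 1878 in the adequate group, against 1975, 1496 and 2455 in the deficient one (probe set 1383241_at). The deficient arrays held both the lowest and the highest value. The log2 means were 10.87 ± 0.09 and 10.92 ± 0.36 (SD, n = 3 each), and the log2 change was 0.04 ± 0.19 (SE), with a 95% interval from -0.38 to 0.47 and an adjusted p of 0.920. The mean log2 change turned negative without deficient array 3 (-0.13) and with array weights (-0.08), and was 0.00, just below zero before rounding, without adequate array 1.

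C1s had signals of 2203, 2144 and 1658 in the adequate group, against 1449, 1698 and 1975 in the deficient one (probe set 1387893_at). Deficient array 1 was the lowest, and the other deficient arrays lay within the adequate range. The log2 means were 10.96 ± 0.23 and 10.73 ± 0.22 (SD, n = 3 each). The log2 change was -0.23 ± 0.18 (SE), with a 95% interval from -0.62 to 0.16 and an adjusted p of 0.525. Although the proteases act as a pair, the difference C1r minus C1s, relative to its adequate mean, was 0.53 on deficient array 1, -0.10 on deficient array 2 and 0.40 on deficient array 3, against -0.24 to 0.26 on the adequate arrays.

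Serping1, the C1 inhibitor, had signals of 776, 773 and 743 in the adequate group, against 433, 587 and 733 in the deficient one (probe set 1372254_at). All 3 deficient arrays were below all 3 adequate arrays, deficient array 3 by little. The log2 means were 9.58 ± 0.04 and 9.16 ± 0.38 (SD, n = 3 each). The log2 change was -0.42 ± 0.20 (SE), a fold of 0.748, with a 95% interval from -0.87 to 0.03 and an adjusted p of 0.363.

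C3, the central protein that all pathways cleave, had signals of 376, 222 and 664 in the adequate group, against 284, 181 and 225 in the deficient one (probe set 1368000_at). The adequate arrays were widely spread, and adequate array 2 lay below deficient arrays 1 and 3. The log2 means were 8.57 ± 0.79 and 7.82 ± 0.33 (SD, n = 3 each), and the log2 change was -0.75 ± 0.36 (SE), a fold of 0.593, with a 95% interval from -1.54 to 0.04 and an adjusted p of 0.358. Without adequate array 3 the log2 change was -0.35 ± 0.31 (SE), and without adequate array 2 it was -1.14 ± 0.31 (SE), with an adjusted p of 0.412. Adequate array 3 was also the highest array for liver transcripts: the mean over the 7 tested hepatocyte markers stood 1.13 above the adequate mean in log2 signal there, and between -0.80 and -0.28 on the other arrays. The summed signal of these markers was 1341 to 6213 in the adequate group, against 1310 to 2814 in the deficient one. The same array was the highest for intestinal epithelium, whose 4 tested markers had a mean 1.84 above the adequate mean there and between -1.34 and -0.54 elsewhere, with a summed signal of 805 to 4488 in the adequate group, against 807 to 832 in the deficient one. Lgals4, a galectin of gut epithelium, read 1347 on adequate array 3 and 38.0 to 75.3 on the deficient arrays. The part of liver and gut transcripts in the C3 signal was not tested.

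Cd59b, which encodes a CD59 protein that shields cells from the membrane pore, had signals of 1521, 1695 and 1438 in the adequate group, against 1544, 1410 and 2080 in the deficient one (probe set 1367929_at). As with C1r, the lowest and the highest values were both deficient arrays. The log2 change was 0.10 ± 0.18 (SE), with an adjusted p of 0.804. This gene was added after its values were seen.

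The C1q chains, known to come mainly from macrophages, were then set beside C1r, C1s and Serping1, known also to be made by stromal cells. Taken as the mean log2 signal of each set relative to the adequate mean, the C1q chains were at 0.09, -0.03 and -0.07 in the adequate group, against -0.81, -0.54 and 0.06 in the deficient one. C1r, C1s and Serping1 were at 0.03, 0.07 and -0.10 in the adequate group, against -0.40, -0.31 and 0.11 in the deficient one. Both sets were low on deficient arrays 1 and 2, C1q by more, and neither was low on deficient array 3. The members of the second set differed: Serping1, at -0.82, -0.38 and -0.06 on the deficient arrays, had a change like those of the C1q chains (r = 0.965 with their mean over the 6 arrays), while C1r, at 0.07, -0.33 and 0.39, raised the mean of the set. An r over 0.9 with the C1q mean was reached by 1030 of 10584 genes outside the members, so this likeness is not particular to Serping1. The mean log2 change was -0.43 for C1q and -0.20 for the other set. Without deficient array 3 these were -0.67 and -0.36, and without deficient array 1 they were -0.24 and -0.10, with a difference of -0.14. The difference between the sets was 0.07, -0.10 and 0.03 in the adequate group, against -0.41, -0.23 and -0.04 in the deficient one, so the groups overlapped. Its change of -0.23 compares with an SD of 0.09 between adequate and 0.18 between deficient arrays, and was not tested, since the genes were chosen with earlier results known. In tissue RNA, fewer cells of a type and less RNA per cell cannot be told apart.

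**Figure D2:**
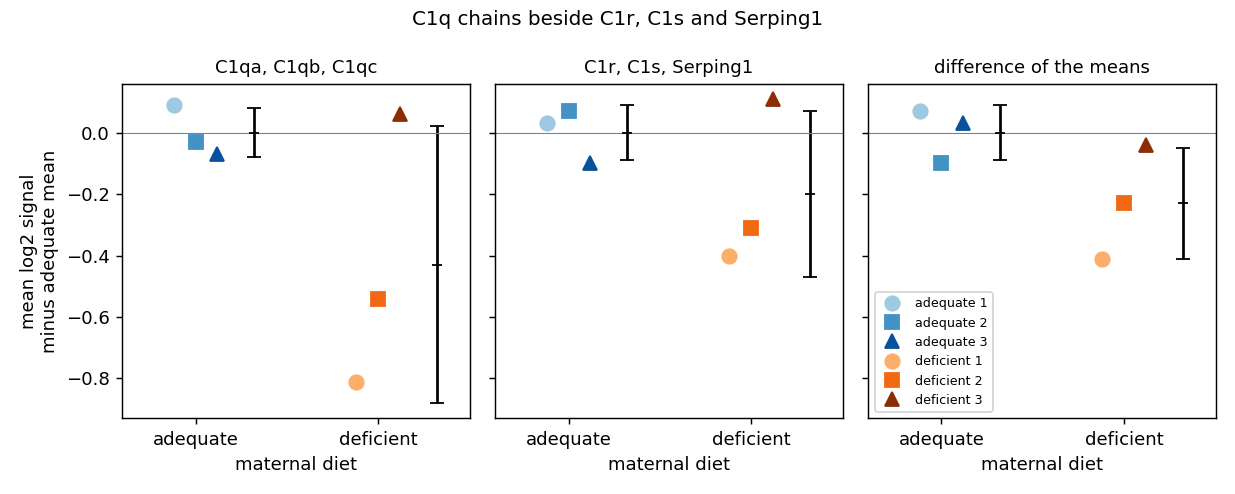
Mean log2 signal relative to the adequate mean, per array and by maternal diet, for the C1q chains, for C1r, C1s and Serping1, and for the difference of these means; bars are the group mean ± SD (n = 3). Deficient arrays 1 and 2 lie low in all 3 panels, at -0.81 and -0.54 for C1q, and deficient array 3 lies at 0.06 for C1q.

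The members' changes depended on which deficient arrays entered the fit. Without deficient array 3, 3 of the 7 probe sets passed limma's adjusted threshold and were lower: C1qb at -0.77 ± 0.15 (SE, adjusted p 0.00923), C1qc at -0.82 ± 0.16 (adjusted p 0.00817) and Serping1 at -0.60 ± 0.17 (adjusted p 0.0375). In that fit 19.4% of all tested probe sets passed, 10.7% of all as lower. With deficient array 3 as the only deficient array, in a fit that assumes it varies as the adequate ones do, 0 of the 7 passed, as did 0% of all tested. C1qb was then at 0.26 ± 0.18 (SE), C1qc at 0.10 ± 0.15, C1qa at -0.16 ± 0.20, Serping1 at -0.06 ± 0.18 and C1s at -0.01 ± 0.19. C1r was at 0.39 ± 0.15 (SE), with an unadjusted p of 0.0342 and an adjusted p of 0.755. C3 had nearly the same change in all 3 fits, -0.75, -0.75 and -0.76, with SEs of 0.36 to 0.51. Fitted with the hybridisation controls as covariate, C1qb and C1qc had changes of 0.19 and 0.02. Over all alternatives run, the adjusted p ranged from 0.00923 to 0.989 for C1qb, from 0.00817 to 0.999 for C1qc and from 0.0375 to 0.989 for Serping1.

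**Figure D3:**
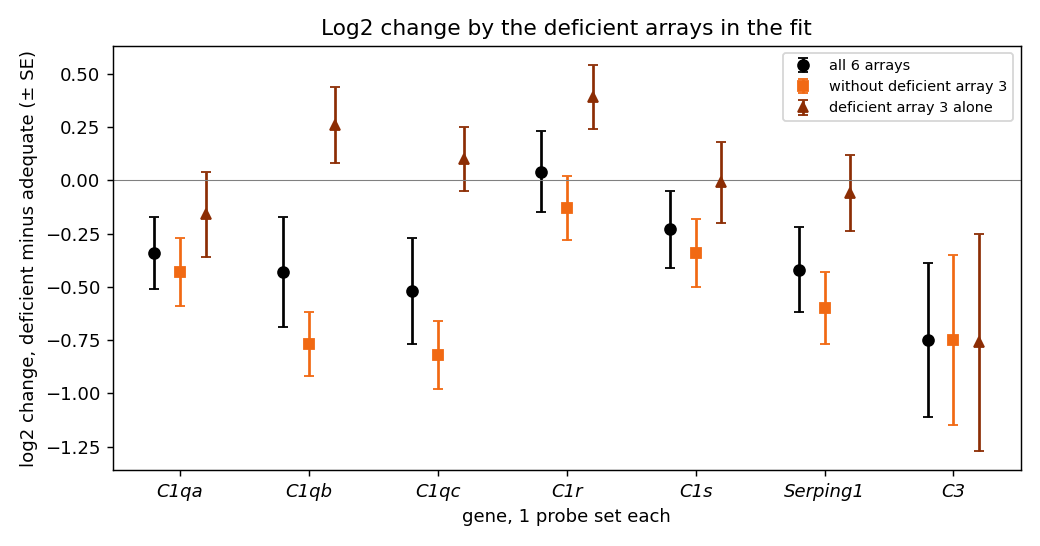
Log2 change, deficient minus adequate, ± SE for each complement probe set, with all 6 arrays, without deficient array 3, and with deficient array 3 as the only deficient array. C1qb and C1qc are at -0.77 and -0.82 without deficient array 3 and at 0.26 and 0.10 with it alone, while C3 is at about the same value in all 3 fits.

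On average, genes that mark macrophages were low on the same arrays as the C1q chains, by less. Of 15 tested macrophage markers 11 were lower and 4 higher, beside 55.3% of all tested probe sets lower. The markers' median log2 change was -0.35, against -0.05 over all, and 0 passed the adjusted threshold. Their mean was 0.08, -0.12 and 0.04 in the adequate group, against -0.43, -0.37 and -0.03 in the deficient one. The markers with the smallest unadjusted p were Tyrobp, a signalling adaptor, at -1.11 ± 0.39 (SE), Fcer1g, an Fc receptor chain, at -0.47 ± 0.18, Laptm5, a lysosomal membrane protein, at -0.65 ± 0.25, and Folr2, a folate receptor of resident macrophages, at -0.57 ± 0.25. The list did not move as one: Lyve1, a marker of a resident macrophage subset and of lymphatic endothelium, stood 0.49 and 0.80 above the adequate mean on deficient arrays 1 and 2 by its brighter probe set, but at -0.05 and 0.02 by its dimmer one, and the scavenger receptor Cd163 at -0.22 and 0.26. Adgre1 stood at 0.38 and 0.34 on these arrays. F13a1 was at 0.31 and -0.12 by its brighter probe set and at -0.49 and -0.15 by its dimmer one. These last genes, and those named by their r further on, were picked after their values were seen. The summed signal of the macrophage list, to which Lyve1 and Lyz2 contribute most, was 22410.0 to 25300.0 on the adequate and 22210.0 to 25290.0 on the deficient arrays. Without Lyve1 it was 15560.0 to 19480.0 and 13180.0 to 16930.0. The part of macrophage number in the C1q values was not tested.

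By the mean of each gene's brightest probe set, fibroblast and stromal markers did not follow C1r, C1s and Serping1. Of 15 tested, 9 were higher and 6 lower, beside 55.3% of all tested probe sets lower. The median was 0.15, against -0.05 over all, and 0 passed. The list mean was -0.11, -0.02 and 0.13 in the adequate group, against 0.29, 0.16 and -0.10 in the deficient one, so deficient arrays 1 and 2 were the highest of the 6. Thy1, a progenitor surface protein, was at -0.92 ± 0.26 (SE), Clec3b, a matrix lectin, at -0.56 ± 0.21, and the collagens Col3a1 and Col1a2 at 0.81 ± 0.34 and 0.57 ± 0.24. A dimmer tested probe set had the other sign for Dpt (-0.21 against 0.32), Fbn1 (-0.01 against 0.15) and Pdgfrb (0.25 against -0.18, with another at -0.21). Those of Col1a1, Col1a2, Thy1, Igfbp6 and Clec3b kept the sign. The list was split: r with the mean of C1r, C1s and Serping1 ran from -0.938 for Dcn and Lum to 0.669 for Thy1. Mesothelial markers had 4 of 5 tested members lower and a median of -0.23, and endothelial markers 4 of 6 and -0.23. Neutrophil markers had 3 of 4 lower and -0.23, and intestinal epithelium 4 of 4 and -0.88. Each of these small lists had 0 past the adjusted threshold. Over all tested probe sets 55.3% were lower, with a median of -0.05. Without adequate array 3 the intestinal median was -0.23, with 3 of 4 lower, and without deficient array 3 the neutrophil median was 0.10, with 1 of 4 lower.

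**Figure D4:**
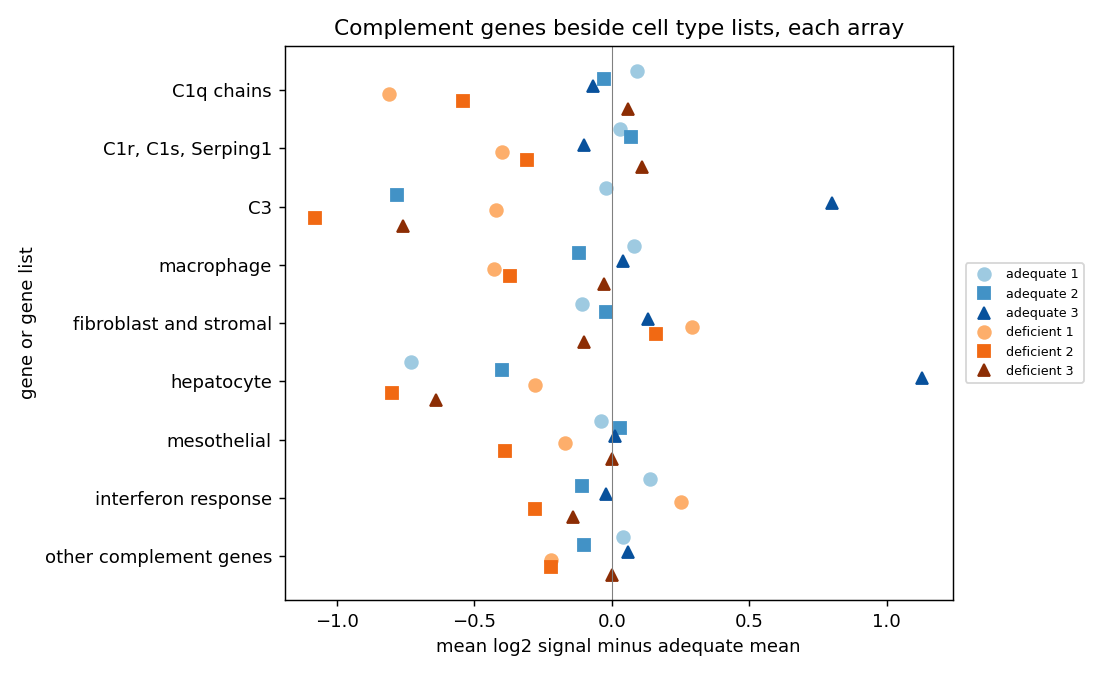
Mean log2 signal relative to the adequate mean on each array for the C1q chains, for C1r, C1s and Serping1, for C3 and for marker lists. Deficient arrays 1 and 2 are low for C1q (-0.81, -0.54) and for the macrophage list (-0.43, -0.37), and adequate array 3 is high for C3 (0.80) and for the hepatocyte list (1.13).

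The pattern over the 6 arrays was compared with that of each of 10584 other genes by Pearson's r, as a description, since all genes share the same arrays and the pair that stood apart. The 5 genes most like the mean of the C1q chains were Golga2 (r = 0.999), Pdcd6ip (0.997), Ilf2 (0.997), Vps39 (0.997) and Sft2d2 (0.996). They encode a Golgi matrix protein, an endosomal adaptor, an RNA-binding factor, an endosome tether and a vesicle transport protein, and none is a macrophage marker. An r over 0.9 was reached by 1030 of the 10584 genes. Among the macrophage markers the cathepsin gene Ctss came 75th, with r = 0.982. Laptm5 came 471st, with r = 0.944, and Tyrobp 555th, with r = 0.938. Mrc1 (0.91), Cd14 (0.908), Csf1r (0.904) and Fcer1g (0.901) were also over 0.9. Cd68 (0.84), Folr2 (0.831), Aif1 (0.751) and Lyz2 (0.587) came lower. In contrast, Cd163 had r = 0.141, the brighter F13a1 probe set -0.149, Adgre1 -0.632 and the brighter Lyve1 probe set -0.861. The brighter probe set of the collagen Col1a1 had r = -0.972. The 5 genes most like the mean of C1r, C1s and Serping1 were Mlx (0.997), Spsb3 (0.996), Zfp646 (0.995), Gpr176 (0.994) and Specc1 (0.994).

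The rest of the complement system was read from a list of 44 genes, of which 34 had a probe set of their own symbol and 18 were bright enough to test. None passed the adjusted threshold. At an unadjusted p under 0.05, 2 were lower and 1 higher, beside 14.2% of all tested in either direction and 8.18% lower, which is near the background. A total of 11 of the 18 had a log2 change below 0, and the median was -0.18, against the 55.3% and -0.05 of all tested probe sets. The groups did not overlap for 3 genes that were lower and 1 that was higher, beside 17.4% of all tested in either direction and 10.8% lower. The other 16 genes lay under the filter, among them most genes of the terminal pore (C5, C6, C8a, C8b, C9), the lectins Mbl1 and Mbl2, and the anaphylatoxin receptor C3ar1.

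Fcna encodes ficolin A, a recognition molecule of the lectin pathway. Its signals were 1037, 787 and 781 in the adequate group, against 438, 516 and 766 in the deficient one. All deficient arrays were lower, deficient array 3 by little, and the log2 change was -0.63 ± 0.23 (SE), with an adjusted p of 0.344. Colec12, a scavenger receptor with a collectin head, had signals of 5839, 6681 and 5970 in the adequate group, against 11270.0, 11750.0 and 6511 in the deficient one. Deficient arrays 1 and 2 were the high ones here, and the log2 change was 0.63 ± 0.23 (SE), with an adjusted p of 0.344. The lectin pathway proteases Masp1 and Masp2 were at 0.17 ± 0.21 and 0.00 ± 0.18 (SE) on their brightest probe sets. A dimmer tested Masp1 probe set was at 0.26 ± 0.25. Their other probe sets lay under the filter, those of Masp2 with signals of 3.5 to 35.1. Fcnb, ficolin B, was at -0.52 ± 0.35 (SE), and the collectin gene Colec11 at -0.17 ± 0.24.

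In the alternative pathway, Cfd, the protease factor D that fat cells secrete as adipsin, had signals of 398, 236 and 269 in the adequate group, against 191, 208 and 227 in the deficient one. The deficient arrays were all lower, and the log2 change was -0.50 ± 0.24 (SE), with an adjusted p of 0.362. With deficient array 3 alone Cfd was also below the adequate mean, at -0.37 ± 0.33 (SE). In that fit C1qa, C1s, Serping1 and C3 were below it too, and C1qb, C1qc and C1r above it. Cfp, properdin, which stabilises the alternative pathway enzyme, was at 0.29 ± 0.20 (SE) on its brighter probe set, while its dimmer one, under the filter, had a mean log2 signal of 7.05 with the adequate and 5.49 with the deficient diet.

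Among the regulators, Clu, clusterin, which blocks pore assembly in fluids, had signals of 2079, 1390 and 2009 in the adequate group, against 647, 853 and 1988 in the deficient one. Deficient arrays 1 and 2 were the lowest and deficient array 3 was within the adequate range, and the log2 change was -0.80 ± 0.35 (SE), with an adjusted p of 0.349. Cd55, decay accelerating factor, which takes apart the C3 cleaving enzymes, had signals of 577, 558 and 597 in the adequate group, against 646, 785 and 703 in the deficient one. It was higher on all deficient arrays, at 0.30 ± 0.16 (SE), with an adjusted p of 0.390. Cr1l, a rodent membrane regulator of C3, was at -0.18 ± 0.17 on its brighter and 0.44 on its dimmer probe set, and Susd4, a complement inhibitor, at -0.41 ± 0.21.

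Also on the wider list were genes of proteins described as binding C1q. C1qbp, which binds the heads of C1q and lies mostly in mitochondria, was at -0.34 ± 0.20 (SE), Calr, the calreticulin gene, at -0.41 ± 0.22, and Cd93, an endothelial and myeloid surface protein, at -0.24 ± 0.22 on its brighter probe set. The dimmer Cd93 probe set, under the filter, had a mean log2 signal of 4.99 with the adequate and 5.70 with the deficient diet. On deficient array 3 C1qbp and Cd93 stood 0.12 and 0.24 above the adequate mean and Calr at -0.17. The receptor genes C5ar1 and Itgb2 were at 0.29 ± 0.25 and -0.17 ± 0.20. C8g, a chain of the terminal component C8, was at 0.05 ± 0.23.

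**Figure D5:**
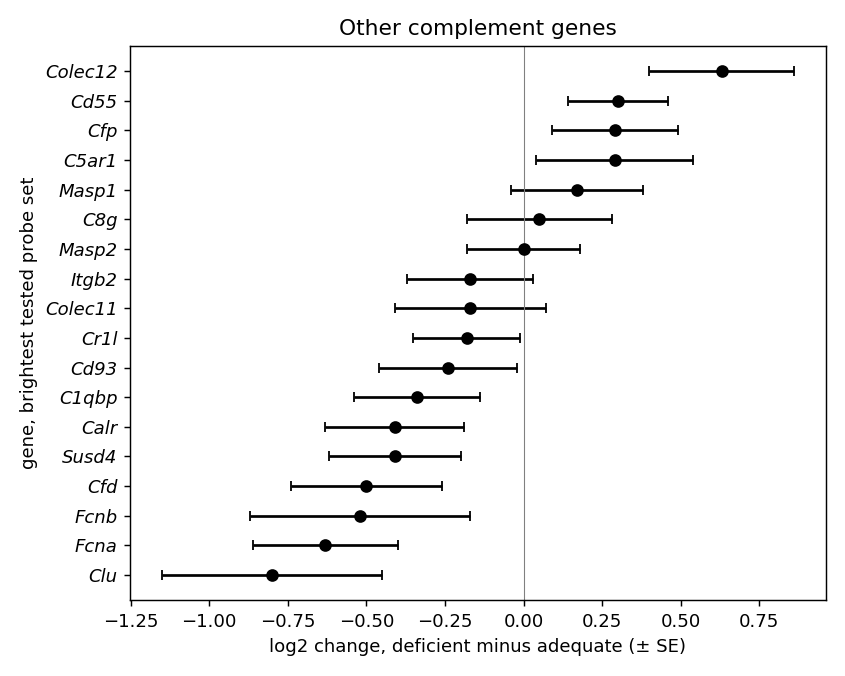
Log2 change, deficient minus adequate, ± SE for the 18 tested genes of the wider complement list, by the brightest tested probe set of each. Values run from -0.80 for Clu to 0.63 for Colec12, and none passed the adjusted threshold.

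Interferon, which is known to raise C1r, C1s, C2 and Serping1, has target genes of its own on the array. Of 13 tested, 8 had a log2 change below 0, beside 55.3% of all tested probe sets. The median was -0.11, against -0.05 over all, and 0 passed. The list mean was 0.14, -0.11 and -0.02 in the adequate group, against 0.25, -0.28 and -0.14 in the deficient one. The median was 0.03 without deficient array 2 and -0.28 without deficient array 1. Stat2 was at -0.49 ± 0.23 (SE), Psmb8 at -0.53 ± 0.29, Ifit2 at 0.51 ± 0.25 and Mx1 at 0.75 ± 0.37. The dimmer tested probe sets of Stat2 and Ifit2 were at 0.00 ± 0.22 and -0.21 ± 0.22 (SE). The part of interferon in the values of C1r, C1s and Serping1 was not tested.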

How the data were processed

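Values are the authors' deposited linear intensity signals for 31099 probe sets of an Affymetrix GeneChip for rat. MAS5, a method that condenses a probe set to 1 scaled signal, and Affymetrix Expression Console are listed in the submitters' processing notes with no version. Every deposited array has a 2% trimmed mean of about 500 units, so arrays were scaled to a common level and total RNA cannot be compared. Background settings and detection calls: not given in the sources used here. The number of arrays limits the precision.

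Tests left out 57 control probe sets. Signals were log2 transformed, and 18625 probe sets with a mean at or above the 40th percentile (6.46) were tested, deficient minus adequate, with limma 3.58.1 (lmFit, eBayes with a trend, two-sided) in R 4.3.3 and Benjamini-Hochberg adjustment. The fit was tested on simulated data. Groups came from the sample titles. Genes were named from the platform annotation, where 20826 probe sets have 1 symbol, 436 several and 9780 none. Lists used each gene's brightest tested probe set. The rule named the 7 probe sets found for the 9 genes (not the 4 shared by C2 and Cfb), up to 4 genes a list with the smallest unadjusted p, any tested gene of the wider complement list, and the 5 genes with the highest r. The members and lists were chosen with earlier results of these data known. Alternatives were other normalizations, filters, an offset, variance models, array weights, a replicate block, and leaving out arrays. Figures were drawn with matplotlib 3.10.9.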

Additional observations from a re-analysis of the deposited data

Results flagged for a closer look

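The bacterial hybridisation controls, which the comparison does not use, read 7.19 times the geometric mean of the adequate arrays on deficient array 1 and 10.1 times on deficient array 2, above every adequate array. These are the arrays on which C1qa, C1qb, C1qc and Serping1 were lowest. The part of these controls' signal in the complement values was not tested. As a covariate the controls set deficient arrays 1 and 2 apart from the others. The diet change in that fit rests mostly on deficient array 3, whose controls read 0.960 times the adequate geometric mean. On deficient arrays 1 and 2 diet and controls cannot be told apart.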

How the results depend on the processing

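With all 6 arrays, 0 members passed the adjusted threshold. With array weights 2 did (C1qb at -0.65, adjusted p 0.0297, and C1qc at -0.69, adjusted p 0.0204), as did 3462 of the 18625 probe sets tested. In that fit 5 members had an unadjusted p under 0.05, and C1r turned to -0.08. The share of all probe sets with an unadjusted p under 0.05 was not counted in the alternative fits. Member counts at that p therefore have no background beside them here. Leaving out each array gave 0 to 3 members past the adjusted threshold, 0 to 4 at an unadjusted p under 0.05 and 0 to 3614 of all probe sets, the highest each without deficient array 3. Over these fits C1qb ranged from -0.77 to -0.21, C1qc from -0.82 to -0.25, C1r from -0.13 to 0.23 and Serping1 from -0.60 to -0.22; the mean for C1q ranged from -0.67 to -0.24, for C1r, C1s and Serping1 from -0.36 to -0.10, and their difference from -0.32 to -0.14. Without deficient array 1 the C1q mean was -0.24. With deficient array 3 alone 1 member, C1r, had an unadjusted p under 0.05, C1qb was at 0.26 and C1qc at 0.10, the means were 0.06 and 0.11 and their difference -0.04. With the hybridisation covariate C1qb was at 0.19, C1qc at 0.02, the means at 0.02 and 0.08 and their difference at -0.06. The causes were not tested. Median centring gave 1 member (C3) at an unadjusted p under 0.05. C1qa, C1s and C3 kept their direction in all 17 alternatives, and Serping1 did as well. With the replicate number as a block, 2 members (C1qc and C3) had an unadjusted p under 0.05 and 0 an adjusted one. Deviations of same-numbered arrays correlated at 0.107, 0.153 and 0.00655, and adequate array 3 correlated best with deficient array 1, so the numbers were not taken as pairs.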
